A study of Mus musculus with 22 samples.

Results

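The 37 genes described here were listed for peroxisome biogenesis and peroxisomal lipid metabolism, and most of them build the organelle or act on lipids inside it. They comprise 13 peroxins and 24 enzymes, transporters and membrane proteins, and they were chosen by name, each measured by a probe set of an expression array whose only gene symbol was that of the member. Where a gene had several such probe sets, the one with the highest mean over all arrays stood for it, which among the members concerned Phyh alone. All 37 were measured, of 22180 genes in all. Inguinal white fat, a subcutaneous depot, was profiled on 22 arrays, 1 mouse each. There were 5 PPARα-null and 5 wild-type mice kept at 5 °C for 10 days, and 6 PPARα-null and 6 wild-type mice kept at 28 °C. The mice were male, 3 to 4 months old and on a C57BL/6 background. The null mice carry a germline loss of PPARα, so the receptor is missing from every cell and not from fat alone. All groups, the controls included, first spent 5 weeks at 28 °C, and the cold groups then passed 1 week at 21 °C before moving to 5 °C. Of the 40 mice housed, 10 per group, 22 were arrayed, by a choice that the labels do not describe. The series asks whether browning of this depot in the cold needs PPARα.

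Peroxisomes are small organelles that shorten very long, branched and other fatty acids that mitochondria handle poorly, start the synthesis of ether lipids and break down hydrogen peroxide. Peroxins make the organelle: some insert its membrane proteins, some carry folded enzymes through the membrane, and the Pex11 family elongates the membrane before division. PPARα is a nuclear receptor for fatty acids, and in rodent liver its ligands make peroxisomes multiply and raise the enzymes of their beta-oxidation. In brown fat of rodents peroxisomes become more numerous in the cold, and fat that turns beige in the cold takes on many brown fat genes.

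Each array gave log2 expression values for 41345 probe sets, and the number of arrays limits the precision of every value. Any pair of arrays correlated at 0.966 to 0.990, and the lower quartile of the values on an array was 2.83 to 2.91, a level near background. The mean of 9 measured adipocyte markers was 10.87 to 11.23 on all arrays, and that of 10 thermogenic adipocyte markers was 9.09 to 9.57 in null and 9.21 to 9.55 in wild-type mice at 5 °C, against 5.88 to 6.53 in null and 5.96 to 6.43 in wild-type mice at 28 °C. The probe set of Ppara, which encodes PPARα, was not called between genotypes at 5 °C (−0.29, limma adjusted p = 0.895) or 28 °C (0.16, limma adjusted p = 0.956). The same probe set was higher in the cold, by 1.42 in null (limma adjusted p = 0.000129) and 1.87 in wild-type mice (limma adjusted p = 3.65e-06). The labels do not say whether its probes fall inside the disrupted stretch, and so it does not check the genotype labels. Muscle and lymphocyte markers varied widely between pads, and 0 of them were called in any comparison, including at an unadjusted p under 0.05 in either cold effect. The hepatocyte marker mean of null 5 °C replicate 2 stood 1.26 above the wild-type 28 °C mean, against −0.48 to 0.37 on the other arrays. Gene positions are on mouse assembly GRCm38.p6 from RefSeq, and changes are log2 differences with Benjamini-Hochberg adjustment over all genes and a call at an adjusted p under 0.05.

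Most of the peroxisomal genes rose in the cold with the receptor and without it. In null mice 22 of the 37 were called higher at 5 °C and 1 lower, where 6.88% of all genes were called higher and 6.33% lower. In wild-type mice 23 were called higher and 1 lower, where 8.35% of all genes were called higher and 8.3% lower. Of the 37, 21 rose in both genotypes, Far1 fell in both, Cat was called higher in null mice alone, Ehhadh and Abcd4 were called higher in wild-type mice alone, and 12 were called in neither. Those called in 1 genotype are not thereby shown to differ between genotypes, which is tested separately below. The median change of the 37 was 0.46 in null and 0.38 in wild-type mice, beside −0.00 in null and 0.01 in wild-type mice over all genes. Groups did not overlap, with every cold array above every 28 °C array, for 21 members in null mice (5.05% of all genes) and 21 in wild-type mice (6.27% of all genes). Every cold array lay below every 28 °C array for 1 member, Far1, in null mice (4.06% of all genes) and in wild-type mice (5.53% of all genes). The average of both genotypes takes in the arrays of all 4 groups. In this average 26 members were called higher and 1 lower, where 11.7% of all genes were called higher and 13.1% lower. In whole fat pads, fewer cells of a type and less RNA per cell cannot be told apart. With each array's median subtracted first, 24 members were higher and 1 lower in null mice, and 25 higher and 1 lower in wild-type mice, and the share of all calls that were higher was 63.0% in null mice (52.0% without this step) and 63.6% in wild-type mice (50.1% without it).

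**Figure D1:**
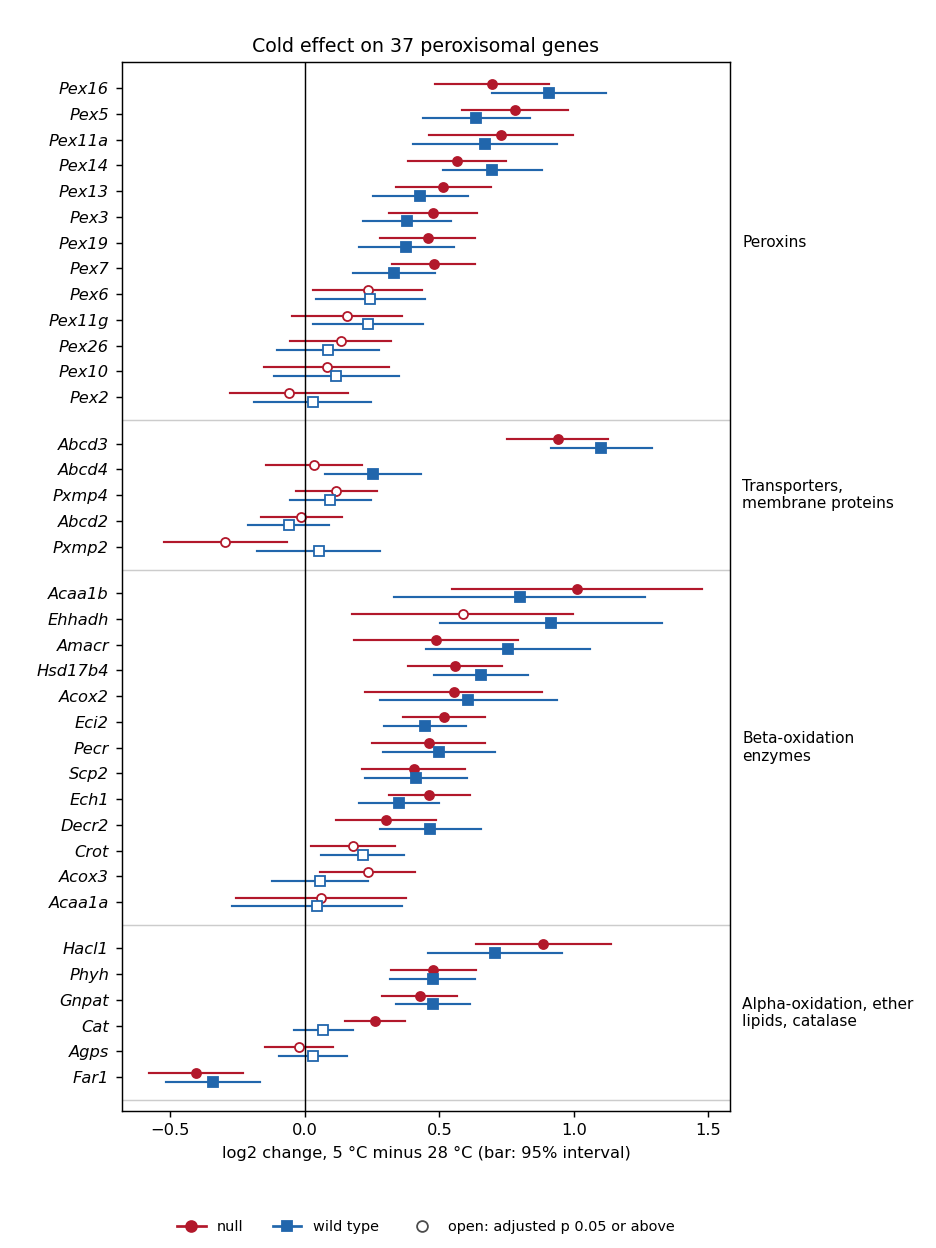
Cold effect (log2, 5 °C minus 28 °C) of each of the 37 genes in null mice (red circles) and wild-type mice (blue squares), grouped by role, with bars for the 95% interval from the limma fit. Filled symbols passed the adjusted threshold, and Far1 is the only member whose filled symbols lie below 0.

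Markers of other cells moved with the cold as well. All 10 macrophage markers fell in both genotypes, with medians of −0.61 in null and −0.66 in wild-type mice, and their mean on single arrays was 8.05 to 8.22 in null and 7.96 to 8.31 in wild-type mice at 5 °C, against 8.57 to 8.88 in null and 8.63 to 8.90 in wild-type mice at 28 °C. Likewise all 8 measured genes of preadipocytes, fibroblasts and matrix were lower in both, with medians of −0.61 in null and −0.70 in wild-type mice. Of 9 adipocyte markers 2 were called lower in null mice and 1 in wild-type mice, and their median change was 0.07 in null and −0.02 in wild-type mice. Of 10 thermogenic markers 9 rose in null and 10 in wild-type mice, with medians of 2.72 in null and 2.69 in wild-type mice. The part of these shifts in the changes of the peroxisomal genes was not tested.

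Promoter windows were read for 30 of the 37 genes, from 250 bases before to 50 bases after each RefSeq start on GRCm38.p6. They were searched on both strands for the direct repeat that PPAR and RXR receptors bind, which is AGGTCA, any 1 base and AGGTCA again, with at most 2 mismatches in its 12 fixed letters, and for its half-site AGGTCA, which any full match may contain. The repeat was found in 2 of the 30 genes (6.67%), and in 1190 of 27025 genes with a window (4.40%). The half-site stood in 4 of the 30 (13.3%: Phyh, Cat, Scp2 and Pex11g), and in 18.1% of all genes. None of the 11 peroxins with a window held the repeat, but at the share of all genes (4.40%) 11 genes may well hold none. A match is a description of letters and not a site in use, and a missing match says only that these letters are not in the window. The windows of Cat and of Acox2 are printed because they hold the 2 matches (in capitals, each with 2 mismatches). Those of Acaa1a and Acaa1b are printed because only the second of these thiolase paralogs was called in the cold. Acox2 has 2 annotated starts, and the match lies in the window of 1 of them. The Cat window is chr2:103485104-103485403, minus strand, that of Acox2 is chr14:8258790-8259089, minus strand, that of Acaa1a is chr9:119341044-119341343, plus strand, and that of Acaa1b is chr9:119157044-119157343, minus strand, each read 5′ to 3′ on the gene's strand.
Cat: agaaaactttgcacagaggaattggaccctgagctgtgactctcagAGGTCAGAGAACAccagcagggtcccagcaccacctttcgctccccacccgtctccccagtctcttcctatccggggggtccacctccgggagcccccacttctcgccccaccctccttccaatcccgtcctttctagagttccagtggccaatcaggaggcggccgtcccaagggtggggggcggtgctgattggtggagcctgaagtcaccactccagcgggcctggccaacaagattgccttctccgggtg
Acox2: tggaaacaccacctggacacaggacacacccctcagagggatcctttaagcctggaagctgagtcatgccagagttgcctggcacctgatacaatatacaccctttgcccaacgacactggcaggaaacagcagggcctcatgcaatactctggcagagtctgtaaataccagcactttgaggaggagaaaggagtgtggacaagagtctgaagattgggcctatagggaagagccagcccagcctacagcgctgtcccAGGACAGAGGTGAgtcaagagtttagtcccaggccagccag
Acaa1a: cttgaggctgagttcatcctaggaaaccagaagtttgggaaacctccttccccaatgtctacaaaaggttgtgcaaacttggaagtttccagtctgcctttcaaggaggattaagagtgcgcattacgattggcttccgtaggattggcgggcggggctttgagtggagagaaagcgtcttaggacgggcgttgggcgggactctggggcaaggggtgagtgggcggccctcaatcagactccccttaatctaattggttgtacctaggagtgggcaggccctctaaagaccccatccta
Acaa1b: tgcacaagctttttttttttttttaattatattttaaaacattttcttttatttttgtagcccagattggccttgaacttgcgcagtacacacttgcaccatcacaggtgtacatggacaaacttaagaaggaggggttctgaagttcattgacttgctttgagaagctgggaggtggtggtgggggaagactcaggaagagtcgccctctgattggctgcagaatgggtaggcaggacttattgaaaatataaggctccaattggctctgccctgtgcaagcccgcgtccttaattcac

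Of the 13 peroxins, 8 rose in each genotype and they were the same genes: Pex5, Pex7, Pex13, Pex14, Pex3, Pex16, Pex19 and Pex11a. None fell. The median change of the peroxins was 0.48 in null and 0.38 in wild-type mice. Pex16 (chr2:92374676-92381220), which helps insert the first membrane proteins of a new peroxisome, had the smallest p among peroxins in the average cold effect. In null mice it read 7.86, 7.93, 7.96, 8.06 and 8.17 at 5 °C, against 7.12, 7.22 and 7.57 (lowest, median and highest) at 28 °C. Wild-type mice gave 8.03, 8.04, 8.14, 8.24 and 8.28 at 5 °C, against 7.02, 7.15 and 7.51 at 28 °C. All 10 cold arrays lay above all 12 arrays at 28 °C. The cold effect was 0.70 in null mice (SE 0.10, limma adjusted p = 4.46e-05) and 0.91 in wild-type mice (SE 0.10, limma adjusted p = 1.32e-06). Pex3, the membrane anchor that receives incoming membrane proteins, rose by 0.48 in null and 0.38 in wild-type mice. Pex19, the soluble chaperone that brings those proteins to Pex3, rose by 0.46 in null and 0.38 in wild-type mice. The 3 membrane assembly peroxins thus all rose in both genotypes.

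Some import peroxins rose and others were not called. Pex5 (chr6:124396816-124415944), the cytosolic receptor for most enzymes bound for the peroxisome, read 7.18, 7.29, 7.36, 7.40 and 7.66 in null mice at 5 °C, against 6.36, 6.54 and 6.89 at 28 °C. In wild-type mice Pex5 read 7.26, 7.29, 7.30, 7.36 and 7.46 at 5 °C, against 6.58, 6.68 and 6.82 at 28 °C. Cold and 28 °C arrays did not overlap in either genotype. Its cold effect was 0.78 in null mice (SE 0.10, limma adjusted p = 4.72e-06) and 0.64 in wild-type mice (SE 0.10, limma adjusted p = 4.82e-05). Pex14 and Pex13, which dock the loaded receptor at the membrane, rose as well: Pex14 by 0.57 in null and 0.70 in wild-type mice, and Pex13 by 0.51 in null and 0.43 in wild-type mice. Pex7, the receptor for the smaller class of enzymes with an N-terminal signal, rose by 0.48 in null and 0.33 in wild-type mice. The RING ubiquitin ligases Pex2 and Pex10, which mark the receptor for recycling, were not called. Pex2 was at −0.06 in null and 0.03 in wild-type mice, and Pex10 at 0.08 in null and 0.12 in wild-type mice. Pex6, an ATPase that pulls the receptor back out of the membrane, was at 0.23 in null mice (limma adjusted p = 0.131) and 0.24 in wild-type mice (limma adjusted p = 0.0947), and Pex26, its membrane anchor, at 0.13 in null and 0.08 in wild-type mice. In each genotype alone 4 of the 8 import peroxins rose. In the average of both genotypes Pex6 was called as well, at 0.24 (limma adjusted p = 0.0124), which makes 5 of 8. Without null 28 °C replicate 3 Pex6 passed in null mice (0.32, limma adjusted p = 0.0116) and in wild-type mice (0.24, limma adjusted p = 0.0357). The uncalled Pex2, Pex10 and Pex26 had 95% intervals of −0.28 to 0.16, −0.15 to 0.31 and −0.06 to 0.32 in null mice and of −0.19 to 0.25, −0.11 to 0.35 and −0.10 to 0.27 in wild-type mice.

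Of the proliferation peroxins, Pex11a rose and Pex11g was not called. Pex11a, the inducible member that elongates the membrane, gave 7.80, 7.80, 7.81, 7.82 and 7.96 in null mice at 5 °C, against 6.75, 7.00 and 7.52 at 28 °C. For wild-type mice its values were 7.81, 7.84, 7.88, 7.97 and 8.11 at 5 °C, against 6.89, 7.30 and 7.46 at 28 °C. The null mice at 28 °C were the most scattered group (SD 0.33), and even their highest array stayed below every cold array. Its change was 0.73 in null and 0.67 in wild-type mice (SE 0.13 each). Pex11g was at 0.16 in null mice (limma adjusted p = 0.371) and 0.23 in wild-type mice (limma adjusted p = 0.118), and its average over both genotypes was called at 0.20 (limma adjusted p = 0.0452).

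**Figure D2:**
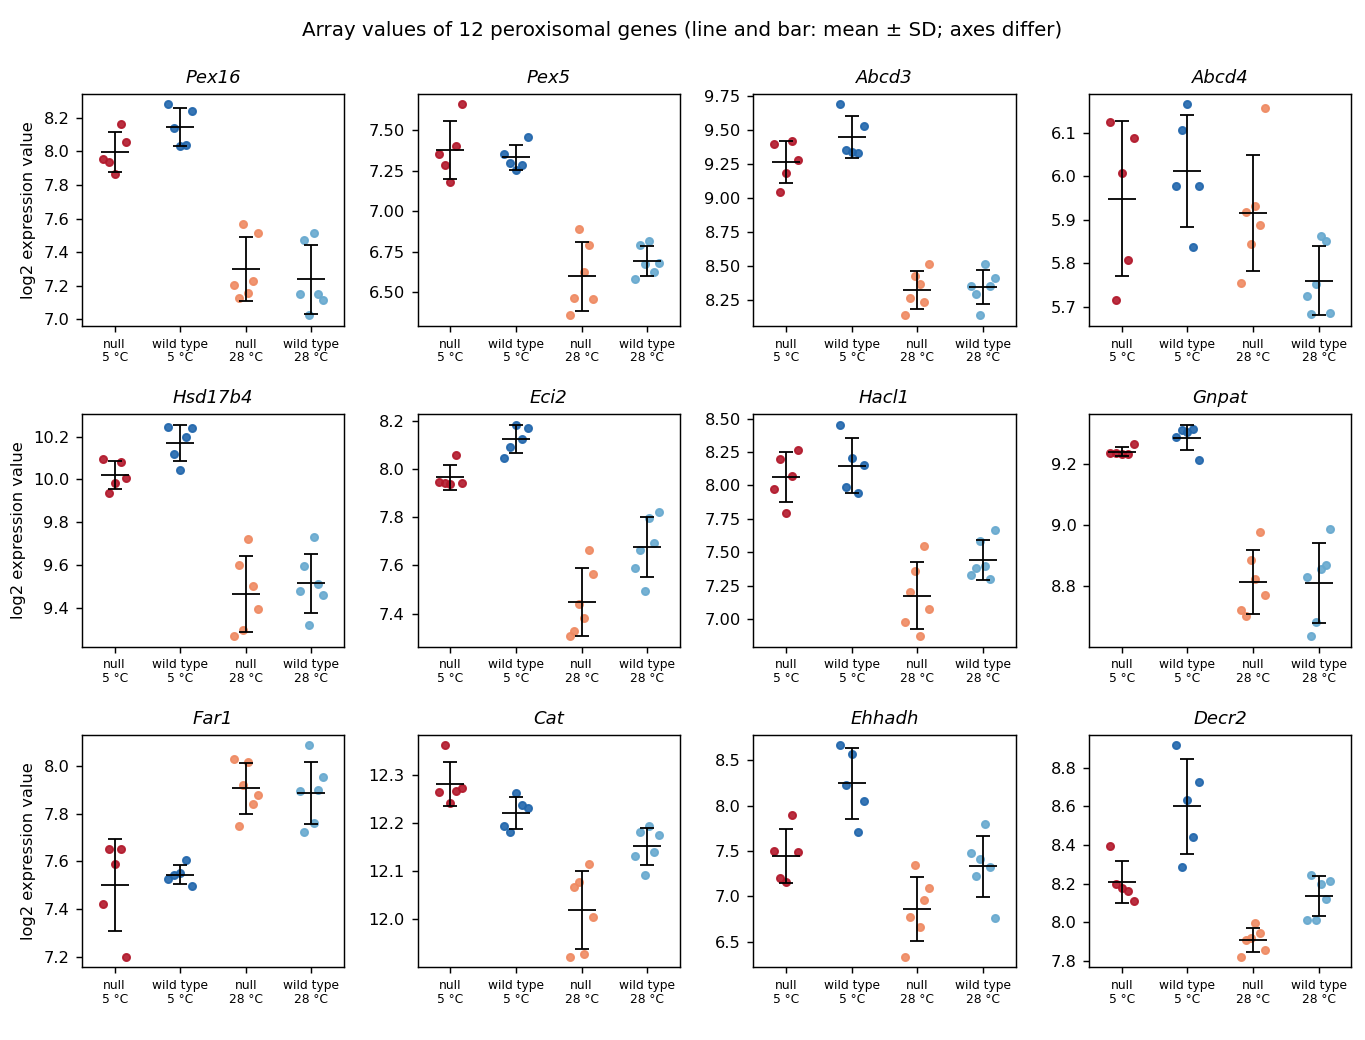
Log2 expression value on each array (points) for 12 members, with the group mean and SD (line and bars); the 4 groups are null and wild type at 5 °C, then null and wild type at 28 °C, and each panel has its own axis. Pex16, Pex5 and Abcd3 separate the 10 cold arrays from the 12 at 28 °C, Far1 does so in the other direction, and Ehhadh and Decr2 lie lower in null mice at both temperatures.

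Among transporters and membrane proteins Abcd3 stood out. Abcd3 (chr3:121758904-121815302), a transporter that brings long-chain, branched and dicarboxylic acyl-CoAs into the organelle, read 9.04, 9.18, 9.28, 9.40 and 9.42 in null mice at 5 °C, against 8.14, 8.32 and 8.52 at 28 °C. Wild-type pads read 9.33, 9.34, 9.35, 9.52 and 9.69 at 5 °C, against 8.14, 8.35 and 8.51 at 28 °C. The lowest cold array lay above the highest array at 28 °C. The change of Abcd3 was 0.94 in null mice (SE 0.09, limma adjusted p = 2.1e-07) and 1.10 in wild-type mice (SE 0.09, limma adjusted p = 2.13e-08). On the linear scale of the signal this is 1.92-fold in null and 2.15-fold in wild-type mice. Its relative Abcd2, a transporter of very long and polyunsaturated acyl-CoAs, was not called in either genotype at −0.01 in null and −0.06 in wild-type mice, with 95% intervals of −0.16 to 0.14 in null and −0.21 to 0.09 in wild-type mice.

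Abcd4 (chr12:84601869-84617485), which despite its family name acts in the export of cobalamin from lysosomes, passed in wild-type mice only narrowly. It read 5.72, 5.81, 6.01, 6.09 and 6.12 in null mice at 5 °C, against 5.76, 5.90 and 6.16 at 28 °C. In wild-type mice it read 5.84, 5.98, 5.98, 6.11 and 6.17 at 5 °C, against 5.68, 5.74 and 5.86 at 28 °C. The groups overlapped in both genotypes. Its change was 0.03 in null mice (SE 0.09, limma adjusted p = 0.875) and 0.25 in wild-type mice (SE 0.09, limma adjusted p = 0.0465). This wild-type call was lost in 13 of the 22 fits that each left out 1 array, those without null 5 °C replicate 3, wild-type 5 °C replicates 1, 2, 3 or 5, null 28 °C replicates 2, 3, 4 or 5, or wild-type 28 °C replicates 1, 2, 3 or 6 (0.21 to 0.26, limma adjusted p = 0.0517 to 0.119). Pxmp2, a channel-forming protein of the peroxisomal membrane, was not called at −0.30 in null and 0.05 in wild-type mice. Pxmp4, another membrane protein, was not called at 0.12 in null and 0.10 in wild-type mice. In null mice the Pxmp2 difference did pass without null 28 °C replicate 1 (−0.37, limma adjusted p = 0.0256).

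Genes of the 13 enzymes of the beta-oxidation spiral and its side reactions were higher at nearly every step. Of these 13 genes, 9 rose in null and 10 in wild-type mice, none fell, and all 13 changes were above 0 in both genotypes. Their median was 0.46 in null and 0.47 in wild-type mice. The first step is the oxidation of the acyl-CoA. Acox2, the oxidase of branched chains and bile acid precursors, rose by 0.55 in null and 0.61 in wild-type mice. Its signal was close to background, with means of 3.67 in null and 3.88 in wild-type mice at 5 °C, against 3.12 in null and 3.28 in wild-type mice at 28 °C. Its null call was lost without null 5 °C replicates 1 or 5 or null 28 °C replicate 3 (0.49 to 0.53, limma adjusted p = 0.0504 to 0.0532). Acox3, another oxidase of branched chains, was not called at 0.23 in null mice (limma adjusted p = 0.0812) and 0.05 in wild-type mice (limma adjusted p = 0.741). It passed in null mice without null 28 °C replicate 5 (0.27, limma adjusted p = 0.0487).

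The next steps are hydration and dehydrogenation by a multifunctional enzyme. Hsd17b4, the D-bifunctional protein that handles branched and very long chains, had the smallest p of the 13 in the average cold effect. In null mice Hsd17b4 read 9.94, 9.98, 10.01, 10.08 and 10.10 at 5 °C, against 9.27, 9.45 and 9.72 at 28 °C. In wild-type mice Hsd17b4 read 10.05, 10.12, 10.20, 10.24 and 10.24 at 5 °C, against 9.32, 9.49 and 9.73 at 28 °C. No cold array overlapped those at 28 °C. Its response was 0.56 in null mice (SE 0.08, limma adjusted p = 6.47e-05) and 0.66 in wild-type mice (SE 0.08, limma adjusted p = 7.57e-06). Ehhadh (chr16:21761285-21787834), the L-bifunctional protein and a classic PPARα target in rodent liver, read 7.15, 7.20, 7.49, 7.50 and 7.90 in null mice at 5 °C, against 6.34, 6.87 and 7.35 at 28 °C. Wild-type values of Ehhadh were 7.71, 8.05, 8.23, 8.58 and 8.67 at 5 °C, against 6.76, 7.37 and 7.79 at 28 °C. Cold and 28 °C arrays overlapped in both genotypes, and the scatter was wide. The Ehhadh change was 0.59 in null mice (SE 0.20, limma adjusted p = 0.0536) and 0.92 in wild-type mice (SE 0.20, limma adjusted p = 0.00208). The null value just missed the threshold, and it passed without null 5 °C replicate 3, wild-type 5 °C replicates 1 or 4, null 28 °C replicate 3, or wild-type 28 °C replicates 4 or 6 (0.59 to 0.68, limma adjusted p = 0.0252 to 0.0478).

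Thiolases make the last cut. Acaa1b rose by 1.01 in null and 0.80 in wild-type mice. Its paralog Acaa1a, also on chromosome 9, was not called at 0.06 in null and 0.04 in wild-type mice. In null mice Acaa1b read 6.18, 6.29, 6.31, 6.73 and 7.00 at 5 °C, against 4.51, 5.51 and 6.14 at 28 °C. In wild-type mice Acaa1b read 6.17, 6.37, 6.55, 6.61 and 7.21 at 5 °C, against 5.59, 5.85 and 5.91 at 28 °C. The groups did not overlap, although null mice at 28 °C ranged widely. The Acaa1b change was 1.01 in null mice (SE 0.22, limma adjusted p = 0.00322) and 0.80 in wild-type mice (SE 0.22, limma adjusted p = 0.0157). Without wild-type 5 °C replicate 1 the wild-type call of Acaa1b was lost (0.64, limma adjusted p = 0.0606). The paralogs are closely alike in sequence, whether their probes tell them apart is not known here, and both values are uncertain for that reason. Scp2, whose long form is the thiolase of branched chains, rose by 0.41 in null and 0.41 in wild-type mice.

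Of the 6 auxiliary enzymes 5 rose in both genotypes. Eci2 (chr13:34977748-35027115), an isomerase that moves the double bond of unsaturated acyl-CoAs and is found in peroxisomes and mitochondria, read 7.94, 7.94, 7.94, 7.95 and 8.06 in null mice at 5 °C, against 7.31, 7.41 and 7.67 at 28 °C. Wild-type mice had Eci2 at 8.05, 8.09, 8.12, 8.17 and 8.18 at 5 °C, against 7.50, 7.68 and 7.82 at 28 °C. Every cold array lay above every array at 28 °C of its genotype. The Eci2 change was 0.52 in null mice (SE 0.07, limma adjusted p = 2.92e-05) and 0.45 in wild-type mice (SE 0.07, limma adjusted p = 0.000131). Ech1, a dienoyl-CoA isomerase also present in mitochondria, rose by 0.46 in null and 0.35 in wild-type mice, Pecr, an enoyl-CoA reductase, by 0.46 in null and 0.50 in wild-type mice, and Amacr, the racemase that prepares branched chains for oxidation, by 0.49 in null and 0.75 in wild-type mice. Decr2, the peroxisomal dienoyl-CoA reductase, rose by 0.30 in null and 0.47 in wild-type mice. Crot, which loads shortened acyl groups onto carnitine for export to mitochondria, was not called at 0.18 in null mice (limma adjusted p = 0.13) and 0.22 in wild-type mice (limma adjusted p = 0.0518), and passed in wild-type mice without null 5 °C replicate 5, null 28 °C replicate 1 or wild-type 28 °C replicate 6 (limma adjusted p = 0.0467, 0.0488 and 0.00867). In the average of both genotypes Crot was called, at 0.20 (limma adjusted p = 0.00739). The null call of Amacr was lost without null 5 °C replicates 1 or 4 or null 28 °C replicates 4 or 5 (0.42 to 0.47, limma adjusted p = 0.0544 to 0.0936), and that of Decr2 without null 5 °C replicate 1 or null 28 °C replicates 1 or 6 (0.26 to 0.29, limma adjusted p = 0.0517 to 0.0944).

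Alpha-oxidation removes a single carbon from phytanic acid and hydroxy fatty acids, and the genes of both measured steps rose. Hacl1 (chr14:31607226-31640965), the lyase that splits the hydroxyacyl-CoA, read 7.79, 7.98, 8.07, 8.20 and 8.27 in null mice at 5 °C, against 6.87, 7.14 and 7.55 at 28 °C. Its wild-type values were 7.94, 7.99, 8.15, 8.21 and 8.45 at 5 °C, against 7.30, 7.39 and 7.66 at 28 °C. Groups did not overlap. The Hacl1 change was 0.89 in null mice (SE 0.12, limma adjusted p = 1.73e-05) and 0.71 in wild-type mice (SE 0.12, limma adjusted p = 0.0002). Phyh, the phytanoyl-CoA hydroxylase, rose by 0.48 in null and 0.48 in wild-type mice, and its second probe set gave 0.48 in null and 0.38 in wild-type mice.

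Ether lipid genes went different ways. Gnpat (chr8:124863033-124890057), the acyltransferase of the first step, read 9.23, 9.23, 9.23, 9.24 and 9.26 in null mice at 5 °C, against 8.70, 8.80 and 8.98 at 28 °C. Wild-type Gnpat read 9.21, 9.29, 9.30, 9.31 and 9.31 at 5 °C, against 8.64, 8.84 and 8.99 at 28 °C. The cold arrays lay close together and above all arrays at 28 °C. The Gnpat change was 0.43 in null mice (SE 0.07, limma adjusted p = 9.69e-05) and 0.48 in wild-type mice (SE 0.07, limma adjusted p = 2.15e-05). Agps, which makes the ether bond, was at −0.02 in null and 0.03 in wild-type mice, with 95% intervals of −0.15 to 0.10 in null and −0.10 to 0.16 in wild-type mice. Far1 (chr7:113513719-113571506), the reductase that supplies the fatty alcohol for that bond, was the only member called lower. In null mice Far1 read 7.20, 7.42, 7.59, 7.65 and 7.65 at 5 °C, against 7.75, 7.90 and 8.03 at 28 °C. In wild-type mice Far1 read 7.50, 7.53, 7.54, 7.55 and 7.61 at 5 °C, against 7.73, 7.90 and 8.09 at 28 °C. Every cold array lay below every array at 28 °C. The Far1 change was −0.40 in null mice (SE 0.08, limma adjusted p = 0.00197) and −0.34 in wild-type mice (SE 0.08, limma adjusted p = 0.00607).

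Cat (chr2:103453904-103485153), the catalase that removes the hydrogen peroxide made by the oxidases, changed little. It read 12.24, 12.26, 12.27, 12.27 and 12.36 in null mice at 5 °C, against 11.92, 12.04 and 12.12 at 28 °C. In wild-type mice Cat read 12.18, 12.19, 12.23, 12.24 and 12.26 at 5 °C, against 12.09, 12.16 and 12.19 at 28 °C. The null groups did not overlap and the wild-type groups did. The Cat change was 0.26 in null mice (SE 0.05, limma adjusted p = 0.00156) and 0.07 in wild-type mice (SE 0.05, limma adjusted p = 0.44). The highest value belonged to null 5 °C replicate 2, the pad with the high hepatocyte markers, and without it the null change was 0.24 (limma adjusted p = 0.0063).

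Other peroxisomal genes came from a list of 43, of which 33 were measured, and many of them were called higher in the cold as well. The list includes the fission genes Fis1, Mff and Dnm1l, which are shared with other organelles, so not every gene on it is particular to peroxisomes. In null mice 20 of the 33 were called higher, beside 6.88% of all genes, and in wild-type mice 17, beside 8.35%. None were called lower, beside 6.33% of all genes in null and 8.3% in wild-type mice. The medians were 0.33 in null and 0.25 in wild-type mice. The rest were not analysed here. The 3 with the smallest p in the average cold effect were Slc27a2, Slc25a17 and Tysnd1. Slc27a2, an acyl-CoA synthetase of very long chains that also sits in the endoplasmic reticulum, averaged 5.75 ± 0.33 in null mice at 5 °C (SD, n = 5), against 3.07 ± 0.40 at 28 °C (SD, n = 6). In wild-type mice Slc27a2 averaged 6.64 ± 0.59 at 5 °C (SD, n = 5), against 3.60 ± 0.36 at 28 °C (SD, n = 6). These are changes of 2.68 in null and 3.05 in wild-type mice. Its signal at 28 °C was close to background, which limits how exactly these changes are known. Slc25a17, a carrier of coenzyme A and adenine nucleotides into peroxisomes, rose by 0.82 in null and 0.92 in wild-type mice, and Tysnd1, the protease that trims imported enzymes, by 0.74 in null and 0.96 in wild-type mice.

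Peroxins and the other 24 members were set side by side as lists, with no test between them. In null mice 8 of 13 peroxins rose, and of the other 24 members 14 rose and 1 fell. In wild-type mice 8 of 13 peroxins rose, and of the other 24 members 15 rose and 1 fell. The median change was 0.48 for peroxins and 0.42 for the others in null mice, and 0.38 for peroxins and 0.43 for the others in wild-type mice. In null mice the middle of the distribution ran from 0.16 to 0.57 (quartiles) for peroxins and from 0.10 to 0.53 for the others. In wild-type mice these quartiles were 0.23 and 0.64 for peroxins and 0.07 and 0.62 for the others. The extremes on both sides belonged to the other 24, from Far1 at −0.40 in null and −0.34 in wild-type mice to Acaa1b at 1.01 in null and Abcd3 at 1.10 in wild-type mice. As means per array relative to the wild-type 28 °C mean, peroxins stood at 0.28 to 0.44 in null and 0.37 to 0.44 in wild-type mice at 5 °C, against −0.18 to 0.19 in null and −0.05 to 0.08 in wild-type mice at 28 °C. The mean of the other 24 was 0.16 to 0.32 in null and 0.28 to 0.50 in wild-type mice at 5 °C, against −0.25 to 0.03 in null and −0.05 to 0.09 in wild-type mice at 28 °C. On both lists every cold array lay above every array at 28 °C. For peroxins at 5 °C the medians were 0.41 in null and 0.37 in wild-type mice, and null replicate 3 was lowest at 0.28. For the other 24 at 5 °C the medians were 0.24 in null and 0.39 in wild-type mice.

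**Figure D3:**
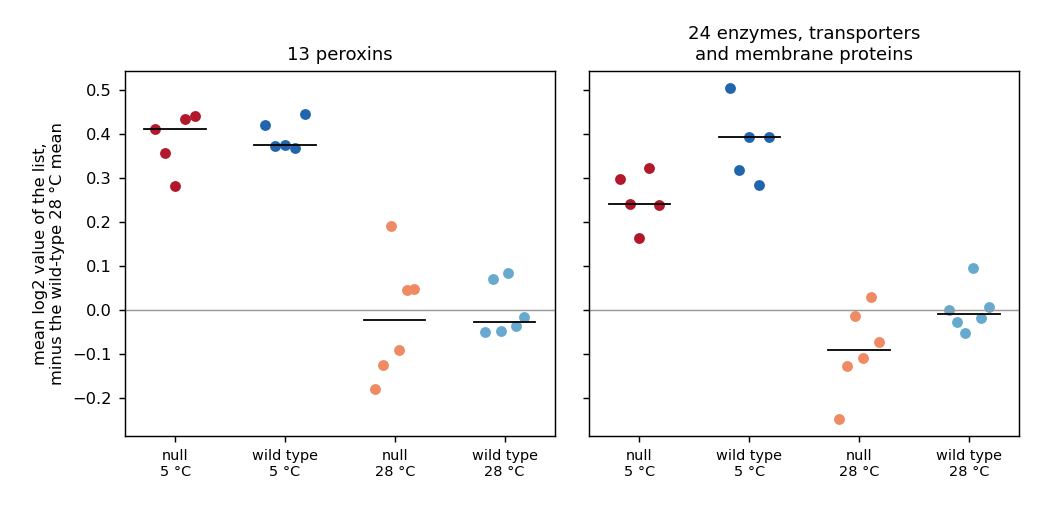
Mean log2 value per array of the 13 peroxins (left) and of the 24 enzymes, transporters and membrane proteins (right), minus the mean of the wild-type 28 °C arrays; points are arrays and lines are group medians. Cold arrays lie above the 28 °C arrays in both panels, and the null 28 °C arrays spread the most among peroxins, from −0.18 to 0.19.

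The comparison of the 2 cold effects asks whether the response of these genes differed without the receptor. For 0 of the 37 genes did the difference pass (limma, smallest adjusted p = 0.963), as for 0.0% of all genes (smallest adjusted p = 0.688). An unadjusted p under 0.05 was found for 2 of the 37, beside 5.13% of all genes. The 95% interval of the difference lay within 0.5 log2 units of 0 for 30 of the 37, and its half-width was 0.16 to 0.66, with a median of 0.27. The median cold effect was itself below 0.5, so this bound does not show that the responses were alike. The smallest p belonged to Cat, with 0.19 (null minus wild type, 95% interval 0.04 to 0.35, unadjusted p = 0.0183, limma adjusted p = 0.963). Next came Pxmp2 (chr5:110274286-110286222), at −0.35 (−0.67 to −0.02, unadjusted p = 0.0375, limma adjusted p = 0.963). Pxmp2 read 7.58, 7.84, 7.85, 7.89 and 7.91 in null mice and 7.94, 7.97, 8.02, 8.23 and 8.25 in wild-type mice at 5 °C. At 28 °C it read 7.76, 8.10 and 8.47 in null mice and 7.82, 7.98 and 8.30 in wild-type mice. Only at 5 °C did its null arrays lie wholly below the wild-type arrays. Abcd4 came after these, at −0.22 (−0.47 to 0.03, limma adjusted p = 0.969). For Abcd3 the difference was −0.16 (−0.43 to 0.10), for Pex16 −0.21 (−0.51 to 0.09) and for Ehhadh −0.33 (−0.91 to 0.25), the last with one of the widest intervals.

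The genotype comparisons at each temperature ask how null and wild-type fat differ in these genes. By limma 0 of the 37 were called at 5 °C, where 0.149% of all genes were called, and 0 at 28 °C, where 0.194% were. An unadjusted p under 0.05 was reached by 4 of the 37 at 5 °C, beside 6.65% of all genes, and by 5 at 28 °C, beside 6.74%, and none of these were peroxins. Null arrays lay wholly below wild-type arrays for 2 members at 5 °C, Pxmp2 and Crot (0.654% of all genes), and for 1 at 28 °C, Decr2 (0.298% of all genes). The opposite direction is not given here, so these counts alone show no lean to either side. Of the 24 enzymes, transporters and membrane proteins, 19 (79.2%) were below 0, that is lower in null mice, at 5 °C and 16 (66.7%) at 28 °C. Of the 13 peroxins 8 (61.5%) were below 0 at 5 °C and 7 (53.8%) at 28 °C, and of all genes 48.5% and 46.6%. The median difference was −0.08 and −0.07 for the 24 and −0.03 and −0.05 for the peroxins, at 5 °C and 28 °C, so it was small on both lists. Among beta-oxidation enzymes alone, 10 of 13 were below 0 at 5 °C (median −0.16) and 11 of 13 at 28 °C (median −0.14). Skeletal muscle markers were lower in null mice too, with medians of −0.50 at 5 °C and −1.69 at 28 °C and 0 of 10 called. Their mean on single arrays was 6.55 to 9.75 in null and 6.38 to 10.51 in wild-type mice at 5 °C, and 5.87 to 8.66 in null and 7.33 to 9.80 in wild-type mice at 28 °C, and their part in these differences was not tested.

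Ehhadh and Decr2 had the smallest p at 5 °C. At 5 °C Ehhadh read 7.15, 7.20, 7.49, 7.50 and 7.90 in null mice, against 7.71, 8.05, 8.23, 8.58 and 8.67 in wild-type mice. At 28 °C Ehhadh read 6.34, 6.87 and 7.35 in null mice, against 6.76, 7.37 and 7.79 in wild-type mice. At both temperatures most null arrays were lower, with overlap. The difference was −0.80 at 5 °C (SE 0.21, limma adjusted p = 0.22) and −0.47 at 28 °C (SE 0.19, limma adjusted p = 0.612), and neither passed. Decr2 (chr17:26081208-26090322) read 8.11, 8.16, 8.18, 8.20 and 8.39 in null mice at 5 °C, against 8.29, 8.44, 8.63, 8.73 and 8.92 in wild-type mice. At 28 °C it read 7.82, 7.91 and 7.99 in null mice, against 8.01, 8.16 and 8.25 in wild-type mice. The groups overlapped at 5 °C and not at all at 28 °C, where the null arrays were the lower ones. Its difference was −0.39 at 5 °C (SE 0.09, limma adjusted p = 0.155) and −0.23 at 28 °C (SE 0.09, limma adjusted p = 0.573). Without wild-type 5 °C replicate 2 the 5 °C difference of Decr2 passed (−0.47, limma adjusted p = 0.0236), and it was the only member called between genotypes in any fit that left out 1 array.

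Eci2 had the smallest p at 28 °C, with a difference of −0.23 (SE 0.07, limma adjusted p = 0.389), and its difference at 5 °C was −0.16 (limma adjusted p = 0.754). The remaining members with an unadjusted p under 0.05 were Pxmp2 (−0.27) and Crot (−0.17) at 5 °C, and Hacl1 (−0.27) and Cat (−0.13) at 28 °C. Among peroxins the differences ran from −0.15 to 0.10 at 5 °C and from −0.15 to 0.17 at 28 °C. Abcd2 and Amacr lie on chromosome 15, as Ppara does, and were not called between genotypes. Abcd2 was at −0.08 at 5 °C and −0.13 at 28 °C, and Amacr at −0.16 at 5 °C and 0.11 at 28 °C. Of the 33 other peroxisomal genes 1 was called between genotypes, Ide, an insulin-degrading protease found partly in peroxisomes. Its difference was −0.97 at 5 °C (limma adjusted p = 1.06e-06) and −1.07 at 28 °C (limma adjusted p = 2.15e-08). Loss of the receptor and other sequence differences between the genotypes cannot be told apart in these comparisons.

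**Figure D4:**
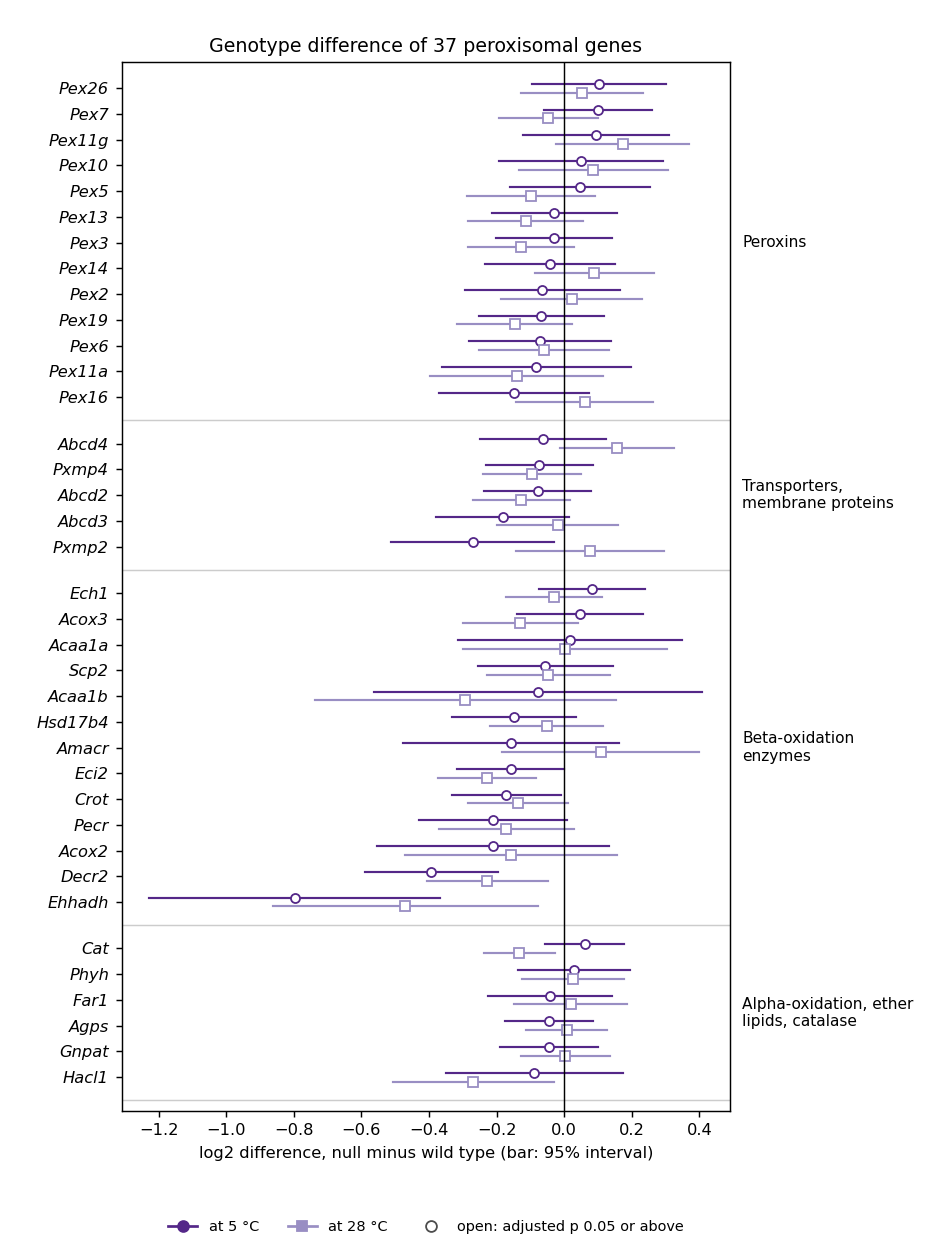
Genotype difference (log2, null minus wild type) of each of the 37 genes at 5 °C (dark circles) and 28 °C (light squares), with 95% intervals from the limma fit. All symbols are open because none passed the adjusted threshold; at 5 °C Ehhadh and Decr2 lie farthest below 0, and the 13 peroxins lie between −0.15 and 0.17.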

How the data were processed

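RNA of inguinal fat pads (100 ng, integrity number above 8) was hybridised to Affymetrix arrays, 1 mouse per array, on 22 arrays. Values were deposited on a log2 scale, 1 per probe set, after RMA, which subtracts background, makes the arrays' distributions alike and summarises probes, per the submitters' processing notes; the labels name neither its version nor a scan date or batch. Because RMA normalizes across arrays, a shift shared by most genes would be removed. Of 41345 probe sets, 23521 had 1 gene symbol in the platform annotation, 1814 several and 16010 none, and only the first kind was used. They gave 22180 genes, and for the 1082 genes with more than 1 probe set the one with the highest mean over all arrays was kept. Columns left unused numbered 0.

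A model with 4 group means was fitted to all 22 arrays and all genes with limma 3.58.1 in R 4.3.3 (lmFit and eBayes), with version 1.17.8 of the data.table package, Python 3.11.15, pandas 2.3.3, numpy 2.4.6 and matplotlib 3.10.9 for tabulation and plotting. It gave the cold effect (5 °C minus 28 °C) in each genotype, their difference and average, and the genotype difference (null minus wild type) at each temperature, with Benjamini-Hochberg adjustment over all genes, 95% intervals and 18 residual degrees of freedom. The code was tested on simulated data. Array values (each array in groups of 5, and the lowest, median and highest in groups of 6) are given for the 2 genes with the smallest p in the average cold effect in each role class, for genes called lower in the cold, for the 3 with the smallest p in the difference, and for the 2 with the smallest p between genotypes. Pex11a, Acaa1b and Ide were added after their values were seen. The members and lists were chosen with earlier results of these data known, and parts of a list are described with no test. Alternatives were other scalings, filters on dim genes, averaging of several probe sets per gene, another variance model, only the groups compared, a replicate block and leaving out each array. Same-numbered arrays of different groups did not deviate together (6 of 31 pairs with r over 0.1), so replicate numbers were not treated as pairs. Promoter windows came from RefSeq on GRCm38.p6. Protein targeting signals were not analysed here.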

Additional observations from a re-analysis of the deposited data

Results flagged for a closer look

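Of 148 sets of arrays, each of 1 gene in 1 group, 9 held an array whose gap to its nearest neighbour was a large part of the group's range by Dixon's criterion. Chance alone singles out about 1 in 20 such sets. Among peroxins, Pex11a in null 5 °C replicate 1 was the highest of its group at 7.96 (others 7.80 to 7.82), and Pex10 in wild-type 28 °C replicate 1 was the lowest at 5.47 (others 5.84 to 6.04). Pxmp2 in null 5 °C replicate 3 was the lowest at 7.58 (others 7.84 to 7.91). Acaa1a in null 5 °C replicate 5 was the lowest at 5.93 (others 6.51 to 6.60), and Eci2 in null 5 °C replicate 4 was the highest at 8.06 (others 7.94 to 7.95). Ech1 in null 28 °C replicate 1 was the lowest at 10.59 (others 10.83 to 10.95). Gnpat had the highest value of the null 5 °C group in replicate 5 at 9.26 (others 9.23 to 9.24) and the lowest of the wild-type 5 °C group in replicate 5 at 9.21 (others 9.29 to 9.31), gaps that are small on the log2 scale. Cat in null 5 °C replicate 2 was the highest at 12.36 (others 12.24 to 12.27).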

How the results depend on the processing

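Over all alternatives run, 3160 values kept their direction and side of the threshold or stayed within their error, 34 became called, 27 lost a call and 0 reversed. Many of these fits could not reverse a value. Leaving out an array of 1 genotype does not alter the cold effect of the other. The dim filters, the other variance model and the fit on only the groups compared leave every log2 change as it was. Of the calls, 20 of 23 in null mice and 22 of 24 in wild-type mice held in every alternative, and the exceptions were Acox2, Amacr and Decr2 in null mice and Abcd4 and Acaa1b in wild-type mice. Leaving out 1 array gave 20 to 24 called members in null mice, 22 to 25 in wild-type mice, 26 to 27 in the average, 0 to 0 in the difference, 0 to 1 in the genotype difference at 5 °C and 0 to 0 at 28 °C. The 1 was Decr2 without wild-type 5 °C replicate 2. The median cold effect of the peroxins then ran from 0.43 to 0.51 in null and from 0.34 to 0.39 in wild-type mice, and that of the other 24 from 0.38 to 0.45 in both. With array medians subtracted 25 members were called in null and 26 in wild-type mice, and with quantile normalization 23 and 24. Without the dimmest 50% of genes 36 members were left, Acox2 being out. With the replicate number as a block, 23 and 24 members were called, as without it; Decr2 lost its null call (0.30, limma adjusted p = 0.0609), Abcd4 lost its wild-type call (0.27, limma adjusted p = 0.0634), and Crot gained calls (limma adjusted p = 0.0421 in null and 0.0152 in wild-type mice). The cause of these changes was not tested. The fit on only the groups compared was not run for the difference and the average, which need all groups. Acox2 and other dim probe sets are limited by signal near background.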

Other observations

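Ide, an insulin-degrading protease found partly in peroxisomes, was the only one of the 33 other peroxisomal genes called between genotypes. At 5 °C it averaged 8.95 ± 0.14 in null mice and 9.92 ± 0.06 in wild-type mice (SD, n = 5 each). At 28 °C it averaged 8.36 ± 0.14 in null mice and 9.43 ± 0.12 in wild-type mice (SD, n = 6 each). Null and wild-type arrays did not overlap at either temperature. Ide lies on chromosome 19, and Ppara on chromosome 15.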
